A study of Salmo salar with 12 samples.

Results

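DNA methylation was compared between the pituitary and the liver of female Atlantic salmon (Salmo salar) by whole genome bisulfite sequencing. The comparison took all 4 pituitary libraries and all 4 liver libraries of a series of 12, which also holds the ovary. Each tissue was represented by 2 fish at T1, sampled just before a long-light photoperiod that brings on maturation, and by 2 other fish at T4, the last sampling after the light change. All fish came from one management group. The titles gave the same fish code to both tissues for 3 fish (T1F3, T1F4 and T4F4), while T4 replicate 1 was fish T4F2 in pituitary and fish T4F3 in liver. Every library was made from whole tissue, so a different mix of cell types and a different level within one cell type cannot be told apart. No gene annotation of the assembly was used here, so positions are given on the ICSASG_v2 sequences without gene names, and the tissue labels were not checked against marker genes.

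In vertebrates most CpG cytosines carry a methyl group, which DNA methyltransferases copy at each cell division and TET enzymes can remove. CpG-dense promoters are usually kept free of methylation in every tissue, whereas regulatory elements away from promoters often lose it in the cell types that use them. The pituitary sends gonadotropins to the ovary, and the liver of a maturing female fish makes the yolk precursor vitellogenin under estrogen.

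The deposited tables listed between 9063730 and 12014565 CpG cytosines with 10 or more reads in each of the 8 libraries, at a median coverage of 14 or 15 reads. Of 21901728 cytosines listed in any of the 12 libraries, 4104838 were listed in all 8, and these carried the comparison. The level of a cytosine was the share of its reads that were methylated. Reads were also summed over 562114 non-overlapping 1 kb stretches (tiles) that held 3 or more of the shared cytosines, with a median of 5 cytosines and 118.5 reads per library. Pituitary T1 replicate 1 stopped at a coverage of 150 reads, and the remaining 7 libraries went beyond it at 13515 to 21326 cytosines each. Over the shared cytosines it was within the range of the other pituitary libraries in mean level, and over every cytosine it listed its mean of 80.2% was the lowest of the 4, the others lying between 80.6% and 81.2%.

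The pituitary was slightly less methylated than the liver, and the difference came from a minority of sites. The mean CpG level was 79.9% and 80.1% in the T1 pituitary libraries and 79.7% and 79.3% in the T4 pituitary libraries. In liver it was 82.03% and 81.98% at T1 and 81.91% and 81.92% at T4. All 4 pituitary libraries lay below all 4 liver libraries, and the means were 79.7% ± 0.36 in pituitary and 82.0% ± 0.057 in liver (SD, n = 4 each). The difference of -2.24 points had a two-sided exact permutation p of 0.0286, the smallest that 70 arrangements allow, and of 0.0556, again the smallest possible, when labels were exchanged only within time points. Paired by replicate number, which for 3 of the 4 pairs is the same fish, the exact permutation p was 0.125, the smallest that 4 pairs allow. Over every cytosine listed in each library, shared or not, the difference was -1.41 points. The difference over shared cytosines was -2.02 points at T1 and -2.45 points at T4, where 2 libraries against 2 cannot go below an exact p of 0.333. The spread over the pituitary libraries was larger than that over the liver libraries, and both T4 pituitary libraries lay below both T1 pituitary libraries. That order did not hold over every listed cytosine, where the T1 pituitary libraries had 80.2% and 81.2% and the T4 pituitary libraries 80.9% and 80.6%.

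The pituitary had more cytosines at low levels. Cytosines under 20% made up 5.43% ± 0.23 of the total in pituitary and 3.83% ± 0.076 in liver (SD, n = 4 each), with no overlap between the tissues (exact permutation p = 0.0286). Cytosines at 80% or more made up 70.4% ± 0.83 in pituitary and 73.5% ± 0.21 in liver, again without overlap. The share between 20% and 80% was 24.1% ± 0.86 in pituitary and 22.7% ± 0.20 in liver, and here the libraries overlapped (exact permutation p = 0.0571). In the plot of library means and level distributions every pituitary library exceeded every liver library in each bin under 60%.

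**Figure D1:**
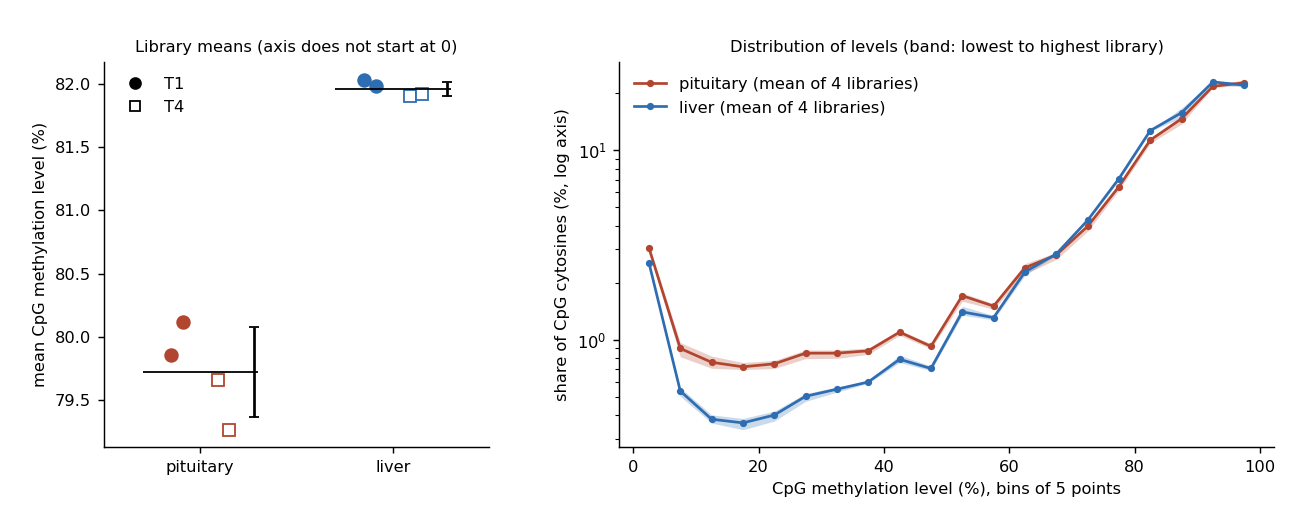
Left, mean CpG methylation level (%) of each library, pituitary then liver, with filled circles for T1 and open squares for T4, lines at the tissue means and error bars of 1 SD (n = 4). Right, share of CpG cytosines (%, log axis) in each 5-point bin of level, as the mean over 4 libraries with a band from the lowest to the highest library: the pituitary libraries sit between 79.3% and 80.1% and the liver libraries between 81.9% and 82.03%.

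Most cytosines hardly differed and a small share differed a great deal. The median difference over the 4104838 cytosines, pituitary minus liver, was -0.08 points, and the 5th and 95th percentiles were -30.3 and 13.3 points. Of all cytosines 6.17% (253406) were lower in pituitary by 25 points or more and 1.54% (63082) were higher by as much. At 50 points or more the shares were 2.17% (88941) and 0.286% (11740), and at 75 points or more they were 0.153% and 0.00314%. The excess of lower over higher cytosines was therefore wider the larger the difference. Among cytosines lower by 25 points or more, 91.5% had all 4 pituitary libraries below all 4 liver libraries, against 8.63% of all shared cytosines. Among those higher by as much, 84.5% had all 4 pituitary libraries above all 4 liver libraries, against 3.88% of all. A mean difference this large leaves little room for overlap, so these shares are not separate evidence. At a coverage of 10 to 20 reads one cytosine's level in one library can move by 10 points or more through counting alone. These shares therefore describe the libraries and were not tested.

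Large differences seen at one time point were seen again at the other, in libraries that shared no reads and no fish. Of 93016 cytosines lower in pituitary by 50 points or more at T1, 97.4% were lower by 25 points or more at T4, against 6.87% of all cytosines, and their median difference at T4 was -57.9 points. Of 13654 cytosines higher by 50 points or more at T1, 93.5% were higher by 25 points or more at T4, against 2.14% of all cytosines, with a median of 50.2 points at T4. Chosen at T4 and measured at T1, the shares were 96.4% for 94082 lower cytosines and 90.7% for 14159 higher ones. Across all cytosines the T1 and T4 differences had a Pearson r of 0.72 (n = 4104838 cytosines, which are not independent).

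The shares in each direction were also read by the level in liver. The scale itself limits them: a cytosine above 75% in liver cannot be higher by 25 points in pituitary at the same time point, and one under 25% cannot be lower by as much. Cytosines were binned by their liver level at one time point, and the difference was read from the libraries of the other time point. Where the liver was at 20% to 40% at T1, 26.4% of cytosines were higher in pituitary by 25 points or more at T4 and 8.48% were lower by as much, with a mean difference of 8.86 points. Between 40% and 60% both directions were nearly equal, at 17.0% higher and 15.5% lower. Between 60% and 80%, where an increase of 25 points has little room, the shares were 3.47% higher and 13.2% lower, with a mean difference of -4.00 points. Where the liver was at 90% or more, 0.148% were higher and 3.85% lower. The bin under 20%, which held 3.58% of the cytosines, differed little, with 5.20% higher and 1.41% lower.

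The bins from 80% to 90% and from 90% to 100% in liver at T1 held 33.1% and 41.8% of the cytosines. They carried 46.8% and 39.8% of the mean difference at T4. In these bins 7.18% and 3.85% of cytosines were lower by 25 points or more at T4, against 6.87% of all cytosines. The bin from 80% to 90% contributed -1.15 points and that from 90% to 100% contributed -0.98 points of the -2.45 points at T4. Their median differences were only -0.73 and -0.62 points. With the liver level taken from T4 and the difference from T1, the 20% to 40% bin again had more cytosines higher (24.8%) than lower (7.95%) and the 80% to 90% bin more lower (6.70%) than higher (0.442%). Read from the pituitary side, cytosines at 20% to 40% in pituitary at T1 stood apart: 56.7% of these were lower than in liver by 25 points or more at T4, with a median difference of -31.8 points. At 40% to 60% in pituitary this share was 37.0%, and at 60% to 80% it was 8.61% with a median of -3.23 points. Under 20% in pituitary it was 31.5%, with a median of -3.13 points.

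**Figure D2:**
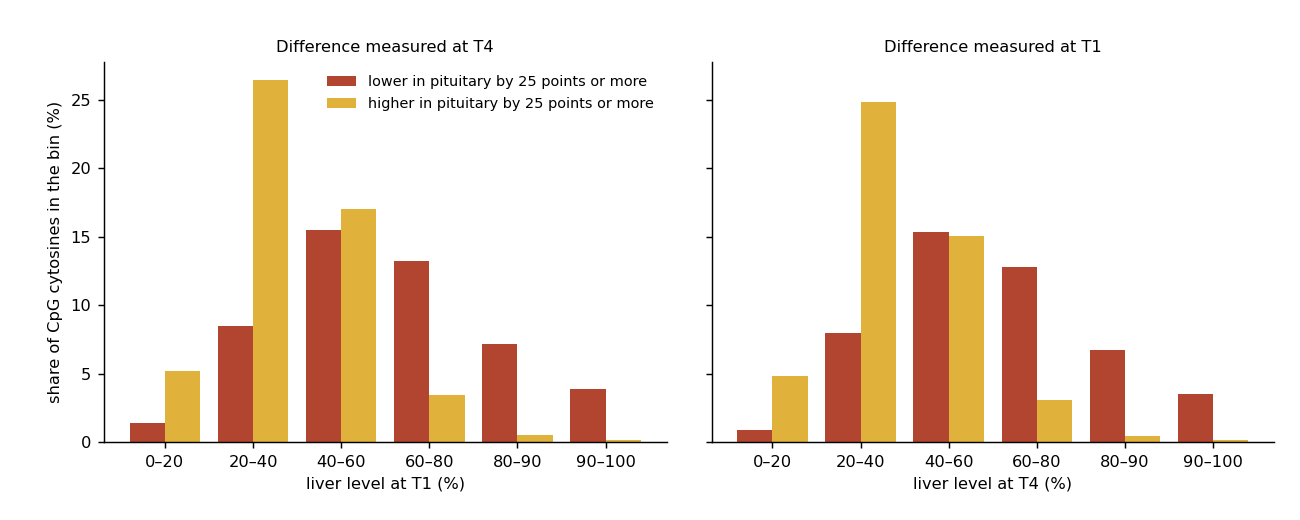
Share of CpG cytosines (%) lower (red) or higher (yellow) in pituitary than in liver by 25 points or more, by the liver level (%) at the other time point; left, liver level at T1 and difference at T4, right, the reverse. Higher cytosines peak at a liver level of 20% to 40% (26.4% at T4 and 24.8% at T1), and lower cytosines outnumber them from 60% upwards in both panels, where the upper end of the scale leaves little or no room for an increase of 25 points.

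Over 1 kb tiles, 103277 differed between pituitary and liver at an adjusted p under 0.05 in edgeR's quasi-likelihood test of methylated and unmethylated reads. Tiles lower in pituitary numbered 74064, or 13.2% of those tested, and tiles higher in pituitary numbered 29213, or 5.2%. The median difference was -20.1 points over the lower tiles and 12.1 points over the higher ones, against -0.08 points over all tested tiles. Lower tiles had a median level of 60.5% in pituitary and 84.5% in liver. Higher tiles had a median level of 88.3% in pituitary and 74.6% in liver. So the usual lower tile was highly methylated in liver and intermediate in pituitary, and the usual higher tile was highly methylated in pituitary and somewhat lower in liver.

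Complete switches were rare and almost one-sided. Tiles under 20% in pituitary and at 80% or more in liver numbered 1071, all of which passed the test, and the reverse was seen in 14 tiles, which also all passed. Tiles under 20% in both tissues numbered 11800, of which 1928 passed, and of all tested tiles 18.4% passed. Lower tiles that differed by 50 points or more numbered 7045 (9.51% of the lower tiles), and 144 differed by 75 points or more. Higher tiles that differed by 50 points or more numbered 489 (1.67% of the higher tiles), and 2 differed by 75 points or more. The 4 pituitary libraries did not overlap with the 4 liver libraries in 90.2% of the lower tiles and in 82.7% of the higher tiles. These tiles were called from the same libraries, so this is not separate evidence, and the share over all tested tiles was not computed. Whether bisulfite conversion differed between the tissues was not tested, since only CpG tables were used.

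The 8 tiles with the largest decrease were low in pituitary and high in liver. They were taken from chromosome sequences, with 5 or more cytosines, no overlap between tissues and ordinary coverage, a rule that 42131 lower tiles met. Their means ran from 10.3% to 14.9% in pituitary and from 89.3% to 94.99% in liver, with differences between -83.0 and -79.0 points. The SD over the 4 pituitary libraries ran from 1.86 to 9.58 points. All 58 of their cytosines had every pituitary library below every liver library, against 8.63% of all shared cytosines. The tiles were chosen for large differences without overlap, so this is not separate evidence. Their adjusted p in edgeR ran from 2.2e-12 to 1.52e-09.

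The best covered of these was the tile CM003284.1:54887001-54888000, in which 16 shared cytosines lay between positions 54887367 and 54887709. It had 10.7% and 13.8% methylation in the T1 pituitary libraries and 12.7% and 9.66% in the T4 pituitary libraries. It had 92.9% and 91.8% in the T1 liver libraries and 92.9% and 88.1% in the T4 liver libraries. Between 346 and 752 reads stood behind each value, and the difference was -79.7 points (pituitary 11.7% ± 1.86, liver 91.4% ± 2.28, SD, n = 4 each, edgeR adjusted p = 2.2e-12). The single cytosines differed by between -83.1 and -66.4 points. The whole stretch was thus nearly unmethylated in every pituitary library and nearly fully methylated in every liver library.

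Among the tiles that met this rule, the largest decrease was in CM003288.1:100755001-100756000. This tile had 24.2% and 13.7% in the T1 pituitary libraries and 1.35% and 8.82% in the T4 pituitary libraries. In liver it had 97.96% and 100% at T1 and 85.5% and 96.5% at T4. Its 5 cytosines all lay between positions 100755896 and 100755909, so that the same read could cover all of them, and 62 to 98 reads stood behind each value. The tile CM003292.1:57195001-57196000 had 13.9%, 13.8%, 18.9% and 13.1% in the 4 pituitary libraries and 93.3%, 92.6%, 94.4% and 96.7% in the 4 liver libraries. The tile CM003294.1:77033001-77034000 had 10.7%, 18.3%, 11.8% and 5.39% in the pituitary libraries and 89.1%, 86.7%, 91.7% and 95.4% in the liver libraries. In both tiles the SD within a tissue stayed at or below 5.32 points, against differences of -79.4 and -79.2 points.

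The other 4 of the 8 were CM003279.1:62144001-62145000, CM003280.1:54913001-54914000, CM003283.1:21759001-21760000 and CM003287.1:64492001-64493000. Their 16 pituitary values lay between 1.74% and 25%, and their 16 liver values between 82.1% and 95.8%. The ovary libraries, which took no part in the test, were nearer to liver in all 8 tiles, with means between 53.1% and 91.4%. The lowest ovary mean was that of CM003294.1:77033001-77034000, where the 4 ovary libraries had 48.8%, 41.5%, 54.9% and 67.2%, between the other tissues.

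The 8 tiles with the largest increase, chosen by the same rule among 14025, reached differences of 67.0 to 80.4 points. Their means ran from 70.9% to 92.0% in pituitary and from 0.823% to 23.9% in liver. Each of these tiles held only 5 to 7 shared cytosines. All 45 of their cytosines had every pituitary library above every liver library, against 3.88% of all shared cytosines. The choice of tiles again left little room for overlap, so this is not separate evidence. The adjusted p in edgeR ran from 1.11e-10 to 3.78e-08.

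The largest was CM003285.1:20218001-20219000. It had 79.0% and 81.1% in the T1 pituitary libraries and 80.2% and 88.5% in the T4 pituitary libraries, and 0%, 1.75%, 5.36% and 0% in the liver libraries (56 to 172 reads per value). The difference was 80.4 points (pituitary 82.2% ± 4.31, liver 1.78% ± 2.53, SD, n = 4 each, edgeR adjusted p = 4.75e-10). The ovary libraries lay between, at 22.05%, 52.3%, 29.8% and 31.3%.

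The tile CM003292.1:72504001-72505000, measured at 6 of its 16 listed cytosines with differences between 30.5 and 81.4 points, was also almost unmethylated in liver. It had 66.7%, 83.8%, 61.7% and 71.6% in the pituitary libraries and 1.68%, 1.61%, 0% and 0% in the liver libraries, and the ovary was as low as the liver, at a mean of 2.18%. The tile CM003294.1:10951001-10952000 had 79.7%, 76.4%, 69.1% and 78.1% in the pituitary libraries and 9.22%, 8.48%, 9.15% and 8.46% in the liver libraries. Its liver values spanned less than 1 point.

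In the tile CM003287.1:64097001-64098000 the liver varied more than the pituitary. It had 91.5%, 93.1%, 94.1% and 89.2% in the pituitary libraries and 12.0%, 38.3%, 13.0% and 32.3% in the liver libraries. The choice of tiles required that every liver library lie below every pituitary library. The remaining 4 were CM003295.1:23684001-23685000, CM003306.1:21415001-21416000, CM003287.1:93612001-93613000 and CM003294.1:44811001-44812000, with pituitary means between 79.98% and 82.4% and liver means between 9.70% and 11.8%. Over the 8 higher tiles the ovary mean was nearer to liver in 6 and nearer to pituitary in 2.

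**Figure D3:**
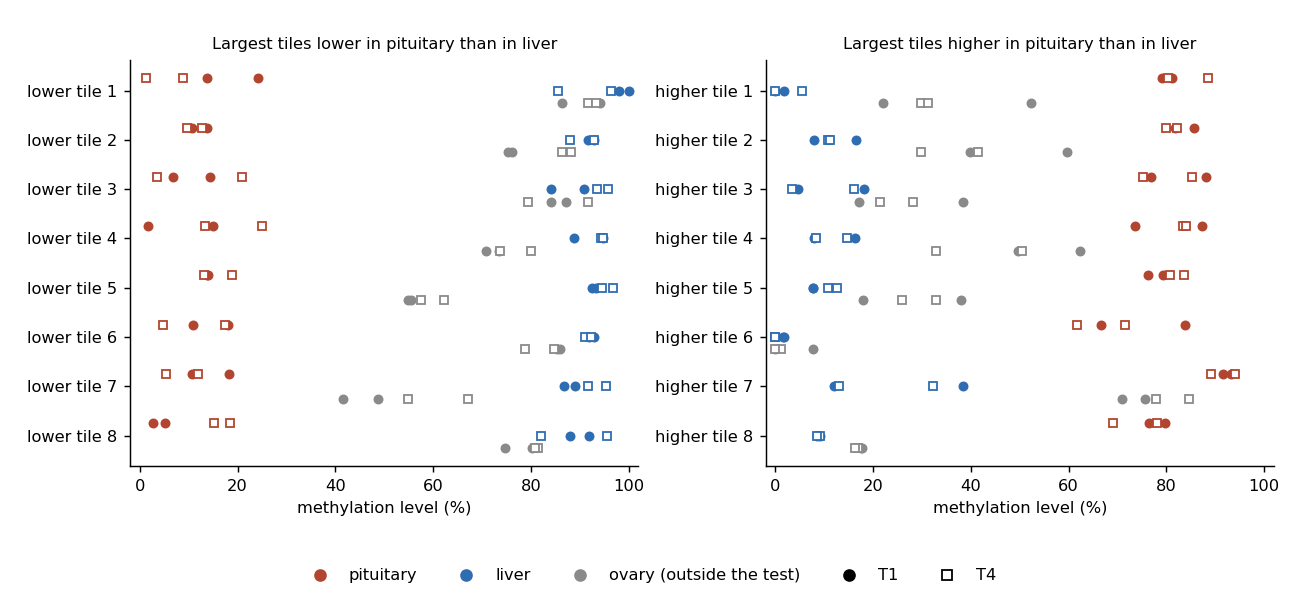
Methylation level (%) of every library in the 8 tiles with the largest decrease (left) and the 8 with the largest increase (right) in pituitary against liver. Only tiles that met the rule in the text were ranked. Pituitary is in red, liver in blue and the ovary, outside the test, in grey. Filled circles are T1 and open squares T4. The choice of tiles required that pituitary and liver do not overlap, and the ovary is nearer to liver in all 8 lower tiles and in 6 of the 8 higher tiles.

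Over all called tiles the ovary stood between the other tissues on average. Among 68954 lower tiles that also had the cytosines of the ovary libraries, the mean level was 55.6% in pituitary, 66.5% in ovary and 80.2% in liver. Among 26696 higher tiles it was 83.5% in pituitary, 74.2% in ovary and 68.4% in liver. Over all 495114 tiles so measured the ovary was the lowest, at 77.9%, against 79.4% in pituitary and 81.8% in liver. The ovary was nearer to pituitary than to liver in 49.6% of the lower tiles and in 43.2% of the higher tiles, against 47.8% of all 495114 tiles so measured. It was below both other tissues in 22.3% of the lower and 25.2% of the higher tiles, against 47.2% of all. It was above both in 9.84% and 9.95%, against 17.3% of all. Tiles were called for a gap between pituitary and liver, which leaves more room for the ovary between them. Among tiles that differed by 20 points or more it was nearer to pituitary in 44.4% of 34139 lower tiles and in 61.7% of 5905 higher tiles. These shares are a description without a test, and the 8 tiles with the largest increase went the other way, with the ovary nearer to liver in 6.

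The tissue difference was of like size at both time points. At T1 alone 50056 tiles (8.9%) were lower in pituitary and 14856 (2.64%) higher, and at T4 alone 50954 (9.06%) were lower and 12795 (2.28%) higher, from the same edgeR fit. Of the tiles lower at T1, 78.6% were also called lower at T4 and 99.1% had a lower level at T4. Of the tiles higher at T1, 49.6% were also called higher at T4 and 94.8% had a higher level at T4. Only 3 tiles were called lower at T1 and higher at T4, and 1 was called higher at T1 and lower at T4. The T1 and T4 differences of all tiles had a Pearson r of 0.86 (n = 562114 tiles, a description).

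In 23145 of 562114 tiles the change of the tissue difference between T1 and T4 had an unadjusted p under 0.05 in edgeR. That is a smaller share than this threshold passes when nothing changes. It does not show that nothing changed, since the test left out the fish codes and had 2 libraries per tissue and time point. The power to find such a change was not simulated. At an adjusted p under 0.05 the tissue difference itself changed in 2 tiles (0.000356% of those tested) in edgeR and in 0 by limma. The count rested on single libraries: it was 46 without pituitary T4 replicate 2, 33 without liver T4 replicate 2 and 7 without pituitary T1 replicate 2, and 1 without pituitary T4 replicate 1 or without any one of liver T1 replicate 1, liver T1 replicate 2 and liver T4 replicate 1. T1 and T4 libraries came from different fish, so time and fish cannot be told apart here.

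In one of these tiles, CM003295.1:49153001-49154000 with 15 cytosines, the T1 pituitary libraries stood alone. It had 82.7% and 71.9% in the T1 pituitary libraries and 0.645% and 0.898% in the T4 pituitary libraries, against 11.1% and 8.42% in the T1 liver libraries and 6.02% and 0.749% in the T4 liver libraries. The difference was 67.5 points at T1 and -2.61 points at T4 (edgeR adjusted p of the change = 0.038). The ovary libraries had 19.8% and 14.9% at T1 and 0.656% and 0% at T4. The T1 fish were thus higher than the T4 fish in all 3 tissues, and by far the most in pituitary.

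In the other, AGKD04016877.1:6001-7000 with 29 cytosines on an unplaced sequence, the T4 liver libraries stood alone. It had 77.3% and 84.2% in the T1 pituitary libraries and 79.3% and 78.1% in the T4 pituitary libraries, against 82.0% and 85.9% in the T1 liver libraries and 33.0% and 38.7% in the T4 liver libraries. The difference was -3.20 points at T1 and 42.9 points at T4 (edgeR adjusted p of the change = 0.00134). Mean coverage there was 66.5 reads per cytosine, against a median of 21.4 over all shared cytosines. With cytosines above 3 times the median coverage left out, 0 tiles passed, and the call lost then includes CM003295.1:49153001-49154000, whose mean coverage was 22.4 reads.

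The balance of the directions moved with CpG density. Density was counted as the CpG cytosines per 1 kb tile listed in any of the 12 libraries. In tiles with 3 to 9 such cytosines 14.7% were lower and 5.73% higher in pituitary, and in tiles with 20 to 29 these shares were 11.6% and 4.72%. In tiles with 40 to 59 the order turned, with 3.25% lower and 4.27% higher, and in the 2050 tiles with 60 or more 2.88% were lower and 7.32% higher. This turn in the calls was less clear within time points: at 40 to 59 cytosines 2.03% were lower and 2.01% higher at T1, and 2.14% were lower and 1.39% higher at T4, while at 60 or more 1.56% were lower and 3.41% higher at T1 and 1.66% were lower and 1.85% higher at T4. The mean tile difference moved with density in the same way, from -2.90 points at 3 to 9 cytosines through -1.58 points at 20 to 29 to 0.41 points at 40 to 59 and 0.73 points at 60 or more. The densest tiles were highly methylated in both tissues, at 90.4% in pituitary and 89.7% in liver.

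Denser tiles also held more shared cytosines, a median of 16 in the densest class against 4 in the sparsest, which changes how small a difference can pass. Among tiles with 5 to 10 shared cytosines only, the share of lower tiles was 17.7% at the lowest density and 1.97% at 40 to 59, and that of higher tiles was 6.58% and 2.89%. In these matched tiles the higher share no longer rose at 60 or more cytosines, where it was 2.29% of 480 tiles. The mean difference still ran from -3.53 to 0.75 points. At T1 and T4 alone the mean difference ran from -2.67 to 0.73 points and from -3.14 to 0.72 points over the same classes. For single cytosines, those lower by 25 points or more made up 7.87% of cytosines in tiles with fewer than 10 and 0.380% in tiles with 60 or more, and those higher by as much 2.16% and 0.0902%. The densest class held only 1.13% of the shared cytosines, and over all called tiles density hardly differed, with a median of 13 cytosines in lower and in higher tiles and 14 in tiles not called. The count depends on which cytosines reached 10 reads in some library, so it is a lower count than that of the genome sequence.

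**Figure D4:**
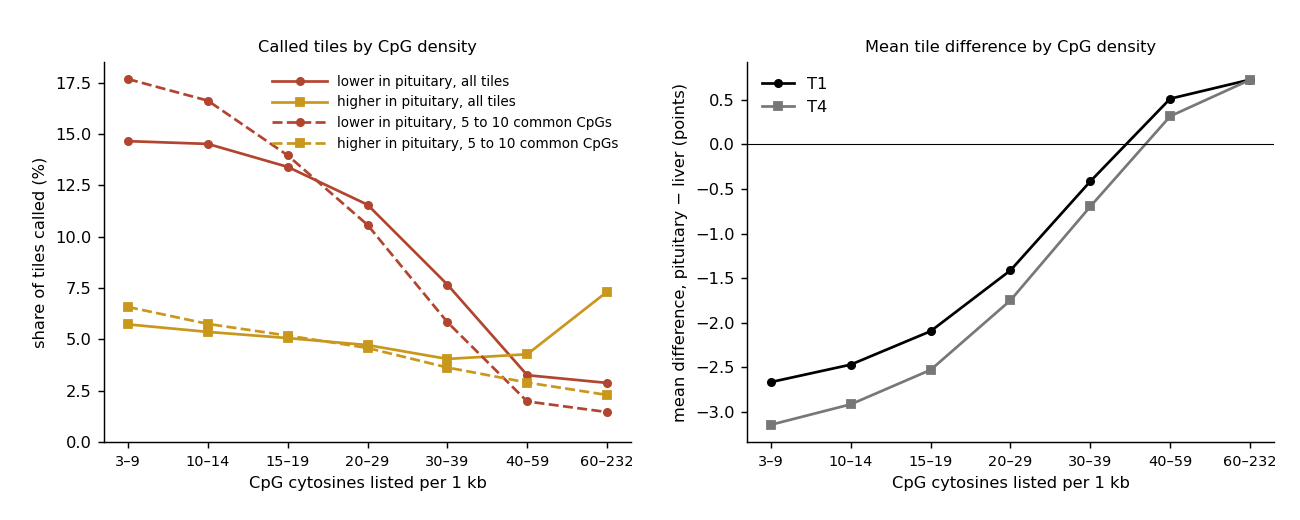
Left, share of tiles (%) called lower (red) or higher (yellow) in pituitary than in liver, by the number of CpG cytosines listed per 1 kb, for all tiles (solid) and for tiles with 5 to 10 shared cytosines (dashed). Right, mean tile difference in points at T1 (black) and T4 (grey): it runs from -2.67 and -3.14 points in the sparsest class to 0.73 and 0.72 points in the densest.

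Differences were clustered most strongly over short distances, though shared cytosines 1 base apart were less alike than those 2 to 100 bases apart. The reason for this was not tested. A tile 1 Mb from a called tile was called in the same direction about as often as tested tiles at large. For neighbouring shared cytosines the T1 difference at one and the T4 difference at the next, which come from different libraries, had a Pearson r of 0.41 at 1 base, 0.68 at 2 to 10 bases, 0.62 at 11 to 50 bases, 0.54 at 51 to 100 bases, 0.42 between 100 and 200 bases, 0.24 between 200 and 500 bases and 0.09 between 500 and 1000 bases. Beyond 2 kb it was 0.03. These are descriptions over between 59714 and 1414347 pairs per distance, and neighbouring pairs can lie on the same reads within a library.

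Runs of 3 or more cytosines, at most 100 bases apart and each differing by 30 points or more in the same direction, were collected at one time point and measured at the other. At T1 there were 21220 lower runs, with a median width of 82 bases, a 95th percentile of 226 bases and a median of 4 cytosines. Their median difference was -51.3 points at T4, 93.0% kept a difference of 30 points or more, and 80.8% overlapped a lower run collected at T4. There were 3238 higher runs at T1, with a median width of 72 bases and a 95th percentile of 185 bases. Their median difference at T4 was 44.5 points, 85.4% kept 30 points or more, and 68.5% overlapped a higher run collected at T4. Collected at T4, the numbers were 22214 lower and 3255 higher runs. Widths are limited by which cytosines were shared, so the true extent may be larger.

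The widest runs were named after their values were seen, and the lower ones were the widest of far more runs than the higher ones. At both time points the widest lower run was CM003283.1:69225822-69226673, with 22 cytosines over 852 bases. It had 19.5%, 15.97%, 27.2% and 17.9% in the pituitary libraries and 84.9%, 87.6%, 87.7% and 85.2% in the liver libraries, while the ovary had 43.1%, 38.6%, 47.6% and 63.0%. The next, CM003280.1:52829281-52830093 at T1, held 29 cytosines, with 19.7%, 19.5%, 17.7% and 13.2% in the pituitary libraries and 84.3%, 87.8%, 87.5% and 86.0% in the liver libraries. The widest higher run at T1 was CM003290.1:30928618-30929015, with 9 cytosines over 398 bases. It had 86.8%, 82.5%, 74.2% and 85.2% in the pituitary libraries and 14.99%, 26.8%, 44.0% and 26.0% in the liver libraries, a difference of 63.7 points at T1 and 44.7 points at T4.

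The widest higher run at T4, CM003299.1:8974449-8974989 with 22 cytosines, was alike in pituitary and liver of the 3 fish that gave both. The fish T1F3 had 43.5% in pituitary and 49.0% in liver, T1F4 had 84.5% in pituitary and 84.6% in liver, and T4F4 had 45.8% in pituitary and 48.7% in liver. The remaining libraries came from different fish, at 88.04% in pituitary (T4F2) and 2.70% in liver (T4F3). The difference of 41.2 points at T4 rested on that unmatched pair, and it was -2.78 points at T1. In the ovary the fish T4F3 had 84.1%, so no other library, that of the same fish's ovary included, was near 2.70%. Tissue and fish cannot be told apart at that pair.

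Called tiles had called neighbours of the same direction more often than tested tiles at large. Beside a lower tile, the next 1 kb tile was also lower in 32.9% of 24532 pairs, against 13.9% of all adjacent pairs, and beside a higher tile the next was also higher in 17.0% of 9398 pairs, against 5.37%. The next tile had the opposite direction in 4.23% and 10.8% of these pairs, against 5.37% and 13.9% of all pairs. At 2 kb the shares of the same direction were 20.5% and 10.3%, at 10 kb 17.2% and 7.04%, at 100 kb 14.9% and 6.17%, and at 1000 kb 13.8% and 5.33%, the last close to the shares over all pairs (13.5% and 5.21%). Between time points, a tile beside a tile called lower at T1 was called lower at T4 in 28.2% of pairs, against 9.67% of all pairs. Beside a tile called higher at T1 it was called higher at T4 in 11.5%, against 2.31%.

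**Figure D5:**
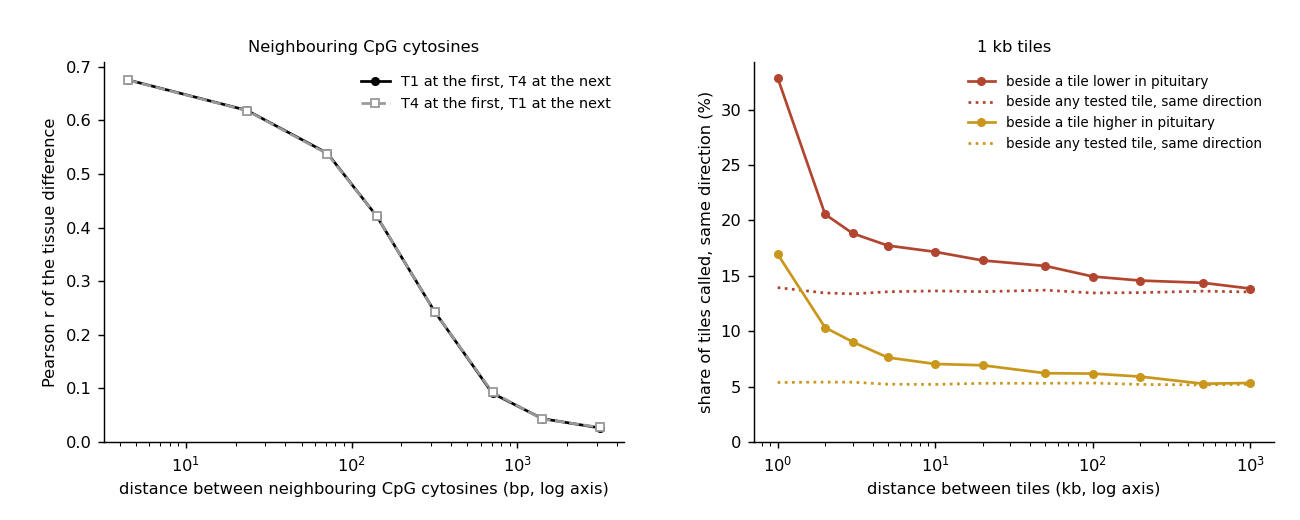
Left, Pearson r of the tissue difference between neighbouring CpG cytosines against their distance (bp, log axis), with T1 libraries at one cytosine and T4 libraries at the next (solid) or the reverse (dashed). Pairs 1 bp apart, with an r of 0.41, are not drawn. Right, share of tiles (%) called in the same direction at a given distance (kb, log axis) from a tile called lower (red) or higher (yellow) in pituitary, with the share over all tested pairs dotted: 32.9% and 17.0% at 1 kb, against 13.9% and 5.37%.

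Runs of adjacent called tiles were short. The 74064 lower tiles formed 66001 runs, of which 58851 were single tiles, 6381 held 2 tiles, 657 held 3 and 112 held 4 or more. The 29213 higher tiles formed 27620 runs, of which 26190 were single tiles and 27 held 4 or more. The longest run in either direction held 7 tiles. An untested tile ends a run, so the lengths are lower limits.

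Among the 5 longest lower runs, CM003280.1:12584001-12591000 was lower in all 7 of its tiles (51 cytosines). Over the whole run the pituitary libraries had 43.9%, 41.5%, 44.5% and 39.8% and the liver libraries 81.4%, 83.1%, 83.0% and 81.8%. The tile differences lay between -56.2 and -16.00 points. The run CM003288.1:81577001-81583000 of 6 tiles had the largest difference, -57.8 points, with 18.3% ± 6.08 in pituitary and 76.1% ± 3.83 in liver (SD, n = 4 each). The run CM003289.1:19500001-19507000 of 7 tiles was low in both tissues, at 22.9% ± 1.28 in pituitary and 36.7% ± 1.24 in liver (SD, n = 4 each). The runs CM003301.1:29169001-29175000 and CM003279.1:77046001-77052000, of 6 tiles each, differed by -35.8 and -37.8 points. None of these 5 runs had an overlap between the pituitary and liver libraries. Their tiles were called from the same libraries, so this is not separate evidence.

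The 5 longest higher runs were of another kind, with small differences at high levels. The run CM003279.1:83931001-83938000 of 7 tiles had 87.3%, 89.3%, 85.5% and 85.4% in the pituitary libraries and 77.1%, 78.3%, 78.3% and 76.9% in the liver libraries. The run CM003297.1:18489001-18496000 of 7 tiles, with 190 cytosines, had 91.8% ± 0.64 in pituitary and 87.6% ± 0.84 in liver (SD, n = 4 each). The runs CM003279.1:141862001-141868000, CM003288.1:91167001-91172000 and CM003298.1:19503001-19508000 differed by 9.45, 9.19 and 7.48 points. No tile of these 5 runs differed by more than 16.2 points. The long higher runs named here were thus shallow and even, whereas each of the long lower runs held a tile that differed by -38.4 points or more. Runs of equal length were chosen by their mean absolute difference, so the depth of the named runs was in part set by the choice.

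Every chromosome had the same direction. On all 29 chromosome sequences each pituitary library had a lower mean CpG level than each liver library, and the difference ran from -3.58 to -1.92 points with a median of -2.31. It was largest on CM003285.1, at 78.1% ± 0.43 in pituitary and 81.7% ± 0.06 in liver, and next largest on CM003295.1, at 78.7% ± 0.37 in pituitary and 82.0% ± 0.04 in liver (SD, n = 4 each). The share of lower tiles ran from 12.1% to 17.0% over the chromosomes, with these sequences at the top (17.0% and 16.1%). The share of higher tiles ran only from 4.53% to 5.76%. The order of the chromosomes by their share of lower tiles was alike at T1 and T4 (Pearson r = 0.99 over 29 chromosomes, a description). On the unplaced sequences together 9.81% of 42303 tiles were lower and 4.78% higher.

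On a finer scale the share of lower tiles varied from 1.67% to 29.7% over 2197 windows of 1 Mb with 100 or more tested tiles, with a median of 13.0%. Its SD over windows was 4.46 percentage points, against 2.29 for counting error alone at these tile numbers. The share of higher tiles had a median of 5.02% and an SD of 2.18 percentage points, against 1.49 for counting error. The T1 and T4 shares of lower tiles had a Pearson r of 0.93 over the windows, and those of higher tiles 0.67. Adjacent windows were alike in the share of lower tiles (r = 0.31 over 2153 pairs) and less so in that of higher tiles (r = 0.12), as descriptions.

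The 2 windows richest in lower tiles, named like the next ones after their values were seen, lay on CM003295.1 and CM003285.1. In CM003295.1:39000001-40000000 29.7% of 222 tiles were lower and 5.86% higher, with a mean tile level of 73.2% in pituitary and 81.2% in liver. In CM003285.1:40000001-41000000 28.7% of 279 tiles were lower, with a mean tile level of 73.2% in pituitary and 81.9% in liver. The window CM003280.1:12000001-13000000, with 27.8% of 270 tiles lower, held the 7-tile run described above. The window richest in higher tiles was CM003288.1:54000001-55000000, where 18.7% of 289 tiles were higher and 12.1% lower.

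The mean difference was carried by the called tiles. The cytosines in tiles called lower at T1, 8.45% of all, had a mean difference of -27.2 points at T4 and contributed -2.30 points to the overall -2.45 points at T4. Those in tiles called higher at T1, 2.54% of all, contributed 0.37 points. The 76.6% in tiles that were tested and not called contributed -0.32 points, with a mean difference of -0.42 points, and the 12.4% in tiles with too few shared cytosines to be tested contributed -0.20 points. With tiles called at T4 and cytosines measured at T1, the contributions in the same order were -2.27, 0.35, 0.05 and -0.14 points of -2.02. Most of the lower mean of the pituitary thus lay in fewer than 1 in 10 of the shared cytosines.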

How the data were processed

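The authors sheared and bisulfite-converted DNA of each tissue, sequenced it in pairs, trimmed reads with Trim Galore 0.5, aligned them to ICSASG_v2 with BS-Seeker2 2.1.8 and Bowtie2, and removed duplicates with Picard. The deposited tables hold, for each CpG cytosine with 10 or more reads, the count of reads and the count of methylated reads, not normalised and with no strand, and cytosines of both strands stand as separate entries. Positions were joined over the 8 libraries. Levels were computed per cytosine, and counts were summed over 1 kb tiles with 3 or more shared cytosines. Library means were compared by exact permutation tests. For tiles, methylated and unmethylated counts were fitted in edgeR 4.0.16 under R 4.3.3 (quasi-likelihood test, library effects and 4 groups of tissue by time point, common dispersion 0.0243 from 20000 tiles), with Benjamini-Hochberg adjustment over all 562114 tiles. limma 3.58.1, coverage and cytosine minimums, other tile sizes, all 12 libraries, a replicate block and leaving out each library were alternatives.

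On simulated counts with 100 tiles lowered and 100 raised by 30 points among 20000, 99 and 96 were found for the comparison over both time points, and 9 unchanged tiles were called. Only tiles with a low starting level were raised, and only tiles with a high one were lowered. Smaller shifts, like the medians of -20.1 and 12.1 points over the called tiles, and increases from a high level were not simulated. Fish codes in the titles paired 3 of the 4 replicate numbers. The tile deviations of same-fish libraries had r of 0.207, 0.212 and 0.204, and those of other pairs -0.129 to 0.0473.

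Named tiles were the 8 largest decreases and 8 largest increases among called tiles on chromosome sequences. These tiles had 5 or more shared cytosines, no overlap and coverage under 3 times the median. Named runs were the 5 longest per direction, with ties broken by the mean absolute difference. The comparison, its thresholds and these rules were chosen with earlier results of these data known. Gene names and marker genes were not used here, because the annotation at hand was of another assembly.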

Additional observations from a re-analysis of the deposited data

Results flagged for a closer look

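Dixon's test at 95% was run on 60 groups of 4 libraries. These were the named tiles, the named runs, the mean level and the shares of cytosines by level, in each tissue. In 4 groups a library lay far from the other 3, and chance alone gives about 1 in 20. In CM003292.1:57195001-57196000 pituitary T4 replicate 1 had 18.9%, against 13.1% to 13.9% in the other pituitary libraries. In CM003280.1:54913001-54914000 liver T1 replicate 2 had 88.9%, against 94.3% to 94.8% in the other liver libraries. In the run CM003289.1:19500001-19507000 pituitary T1 replicate 2 had 24.8%, against 22.05% to 22.5%. In the run CM003301.1:29169001-29175000 pituitary T4 replicate 1 had 47.5%, against 42.2% to 43.1%. None of these values reached the range of the other tissue, which the choice of the named tiles had required for those tiles.

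The tissue difference changed between T1 and T4 in 2 tiles by edgeR's test of the change. In AGKD04016877.1:6001-7000 the T4 difference exceeded the T1 difference by 46.1 points (adjusted p = 0.00134), and in CM003295.1:49153001-49154000 the change was -70.1 points (adjusted p = 0.038). Time and fish cannot be told apart in either.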

How the results depend on the processing

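The mean difference kept its direction under each alternative run, from -2.84 points with 20 or more reads in every library to -1.41 points over every listed cytosine. The 16 named tiles kept theirs in the 1 alternative run for them, the mean of cytosine levels. With the replicate block, which for 3 of the 4 pairs is the same fish, the mean difference was -2.24 points, and the exact permutation p was 0.125, the smallest that 4 pairs allow. The replicate block gave 111634 tiles and kept 101922 of the 103277. Blocking by fish code over 6 libraries gave 98596.

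Counts moved by more than 1.5 times where fewer tiles or a minimum size were asked for. Of the tiles tested, 23.5% differed with 20 or more reads in every library and 22.6% with 10 or more shared cytosines. These shares stood against 18.4% in the main run, and against 7.82% with a difference of 20 points or more. With 20 or more reads in every library (127410 tiles) 29937 tiles differed, 21494 lower and 8443 higher, with 20247 at T1 and 19781 at T4, and 1 changed between time points. With 10 or more shared cytosines (86730 tiles) the numbers were 19612, 14268, 5344, 12514 and 12310, and 1 changed. With a difference of 20 points or more they were 43942, 37131, 6811 and, at T1, 42302. The number of tiles whose difference changed was 0 by limma and with high coverage left out, 1 with all 12 libraries and 1 with 500 bp tiles.

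With 20 or more reads, 7.25% of single cytosines were lower and 1.21% higher by 25 points or more. With 10 or more shared cytosines, 40.7% of lower tiles had a lower tile in the next 1 kb (15.1% of all pairs) and 27.9% of higher tiles a higher one (7.90%).

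Leaving out each library gave mean differences from -2.37 to -2.08 points, between 86533 and 91371 tiles, and between 1 and 46 tiles whose difference changed. Between 80.03% and 83.4% of the called tiles passed again.

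Cytosines under 10 reads in any of the 8 libraries were not measured, which leaves 4104838 of 21901728. Cytosines of one tile share reads, so its counts are not independent molecules. Bisulfite conversion, cell makeup and sequence differences between fish were not tested.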
